A study of Mus musculus with 9 samples.

Results

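The hepatic coagulation factors described here are 10 mouse genes, F2, F5, F7, F9, F10, F11, F12, F13b, Proc and Plg, chosen by symbol. Each symbol matched 1 identifier of the 56719 genes listed per library, and all 10 passed the count filter that left 17704 genes for testing. Polyadenylated RNA from the liver was sequenced for 3 groups of C57BL/6J mice, with 3 libraries a group and 9 in all. FMT-Con A mice were gavaged for 4 weeks with faecal suspension taken from animals in which concanavalin A (Con A) had caused hepatitis, then given Con A (10 mg/kg) by tail vein on the day the livers were collected. Con A mice were gavaged with PBS over those weeks and given the same dose of Con A, a bean lectin used to provoke T cell-driven liver injury. WT mice were gavaged and injected with PBS. No genetic change is labelled in any group, no time between injection and collection is given, and no group received the faeces without Con A. The titles number replicates within a group and do not say whether libraries come from separate animals, so p-values reflect only variation among these libraries. The sample labels call the mice female and the housing text calls them male. The Y-linked Ddx3y had 2676 to 6192 reads in the 9 libraries, and Xist, the transcript of the inactive X chromosome, had 21 to 139. These reads match the housing text and not the female label.

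Hepatocytes make most soluble clotting factors as inactive precursors that circulate until a cut by the preceding protease activates them. Factor XII and factor XI start the contact (intrinsic) route, factor VII with tissue factor starts the extrinsic route, and both routes reach factor X, which with factor V turns prothrombin (F2) into thrombin. Thrombin makes fibrin and activates factor XIII, which cross-links it, while protein C (Proc) inactivates the factor V and factor VIII cofactors and plasmin, from plasminogen (Plg), dissolves fibrin. Factors II, VII, IX and X and protein C need vitamin K for carboxylation before secretion.

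The 250 bases before the RefSeq start (GRCm38.p6) are shown for the 3 genes that were lower in FMT-Con A than in Con A livers, F11, F13b and F5, and for F9, whose product is the substrate of activated factor XI. Capitals mark exact matches, on either strand, to letters of liver and inflammatory factor motifs. The letters searched were CAAAGTNCA for HNF4, TTGCNNAA for C/EBP, TGTTTAC for FOXA, TTCNNNGAA for STAT and GGANTTTCC for NF-kappaB.
F11, chr8:45262032-45262281, minus strand: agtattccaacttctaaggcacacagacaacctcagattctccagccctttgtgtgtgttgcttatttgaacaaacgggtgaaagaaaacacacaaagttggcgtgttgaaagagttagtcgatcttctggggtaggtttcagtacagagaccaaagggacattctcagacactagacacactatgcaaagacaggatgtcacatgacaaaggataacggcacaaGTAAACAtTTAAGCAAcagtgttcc
F13b, chr1:139501457-139501706, plus strand: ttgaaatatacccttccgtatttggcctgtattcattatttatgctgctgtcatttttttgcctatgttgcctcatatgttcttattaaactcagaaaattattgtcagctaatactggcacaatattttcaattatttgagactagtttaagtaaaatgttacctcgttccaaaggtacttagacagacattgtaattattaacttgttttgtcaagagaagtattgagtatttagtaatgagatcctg
F5, chr1:164151585-164151834, plus strand: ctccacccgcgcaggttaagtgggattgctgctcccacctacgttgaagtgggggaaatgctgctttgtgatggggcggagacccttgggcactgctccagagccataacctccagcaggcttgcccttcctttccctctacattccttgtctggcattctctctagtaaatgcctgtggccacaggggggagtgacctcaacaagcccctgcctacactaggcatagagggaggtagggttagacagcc
F9, chrX:59999214-59999463, plus strand: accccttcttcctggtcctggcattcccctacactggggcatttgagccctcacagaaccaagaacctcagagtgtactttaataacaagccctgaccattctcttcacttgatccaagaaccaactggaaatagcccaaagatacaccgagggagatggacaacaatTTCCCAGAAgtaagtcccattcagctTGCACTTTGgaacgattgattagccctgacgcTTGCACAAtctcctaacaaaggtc
F11 held a FOXA match 25 to 19 bases before the start and a C/EBP match 17 to 10 bases before it, both reading on the opposite strand. F9 held an HNF4 match at 56 to 48, a C/EBP match at 24 to 17 and a STAT match at 82 to 74 bases upstream, and F13b and F5 held none. Of the 8 members with a promoter entry, 1 held the FOXA letters, 2 the C/EBP letters, 1 each the HNF4 and STAT letters and 0 the NF-kappaB letters. Over all 32851 promoter windows of that length, 3.17% held the FOXA letters, 9.56% C/EBP, 1.19% HNF4, 7.02% STAT and 1.07% NF-kappaB. A match of letters is a description of the sequence and not a bound site.

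All 10 genes are protein-coding, and positions here are on GRCm38, counted from 1. F12 (ENSMUSG00000021492) lies on chromosome 13 at 55417958 to 55426793 and F11 (ENSMUSG00000031645) on chromosome 8 at 45241174 to 45262031. F9 (ENSMUSG00000031138) lies on chromosome X at 59999464 to 60030759. F7 (ENSMUSG00000031443) at 13026034 to 13035809 and F10 (ENSMUSG00000031444) at 13037308 to 13056676 are neighbours on chromosome 8, 1499 bases apart. F5 (ENSMUSG00000026579) and F13b (ENSMUSG00000026368) lie on chromosome 1 at 164151838 to 164220277 and at 139501702 to 139523752. F2 (ENSMUSG00000027249) lies on chromosome 2 at 91625320 to 91636414, Proc (ENSMUSG00000024386) on chromosome 18 at 32123126 to 32139570 and Plg (ENSMUSG00000059481) on chromosome 17 at 12378608 to 12419385. Plg overlaps Slc22a3 on the opposite strand, and strand use in the counting is not given in the sources used here, but Slc22a3 had a median of 134 reads per library against 10951 or more for Plg.

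Total counts ran from 21580482 to 29466806 in FMT-Con A, 21772376 to 25890947 in Con A and 20513051 to 22770276 in WT. The fewest reads of any member in any library were 736, for F13b in FMT-Con A 3 (95% Poisson interval 684 to 791, counting error only). That error was small beside the spread of F13b between the FMT-Con A libraries. Whether this holds for every member and group was not tested. The 10 hepatocyte markers, Alb among them, were counted in every library and summed to 38600 to 41700 CPM (counts scaled to a library total of 1000000) in FMT-Con A, 54200 to 59200 in Con A and 65900 to 79900 in WT. In whole liver, fewer hepatocytes, less RNA per hepatocyte and a change of the marker genes themselves cannot be told apart. The 10 markers did not move together. In Con A vs WT 5 were called higher and 3 lower, and in FMT-Con A vs WT 2 higher and 4 lower. The 10 skeletal muscle markers summed to 14600, 1340 and 14400 CPM in FMT-Con A 1, 2 and 3, to 2.13, 5.6 and 1380 in Con A 1, 2 and 3, and to 2.92 to 7.65 in WT. Transcripts of the mitochondrial genome took 7.44 to 11.7% of counts in FMT-Con A, 5.03 to 9.96% in Con A and 19.6 to 22.4% in WT. The part of muscle, mitochondrial and leukocyte RNA in the results was not tested. Removing the 10 muscle markers or the mitochondrial transcripts from the counts changed no call of a member except F10 in Con A vs WT (edgeR adjusted p = 0.0543 without mitochondrial transcripts). Other muscle transcripts stayed in, and dropping the 10 markers moved the median of all genes by 0.00 on the log2 scale in FMT-Con A vs Con A. That setting therefore does not measure the part of muscle RNA. The neutrophil markers summed to 211 to 299 CPM in FMT-Con A, 212 to 415 in Con A and 9 to 14.9 in WT, and the Kupffer cell markers to 38.9 to 83.9 CPM in FMT-Con A, 91.7 to 109 in Con A and 138 to 217 in WT. Of the 5 Kupffer cell markers, Marco went the other way, 6.22-fold higher in FMT-Con A and 9.84-fold higher in Con A than in WT. The sums of the sinusoidal endothelial markers (63 to 103 CPM) and of the T cell markers (5.51 to 13 CPM) overlapped between all groups, but single markers moved in opposite directions. In Con A vs WT, Lyve1, Pecam1 and Stab2 were called higher and Clec4g and Kdr lower, and Cd3e, Cd8a and Trac were called higher and Cd4 lower. The 6 platelet and megakaryocyte markers summed to 9.45 to 12 CPM in FMT-Con A, 6.8 to 9.6 in Con A and 8.95 to 12.2 in WT. Within that sum Pf4 and Ppbp were higher (4.33-fold and 3.75-fold in Con A vs WT) and Itga2b lower (-0.72 on the log2 scale), and the other 3 did not pass the count filter. FMT-Con A 1 and 3 were the most alike of any pair within a group (median chi-square 2.54 times that of sampling), and no pair agreed within sampling noise.

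Values below are CPM scaled by library size and TMM factor, given for libraries 1, 2 and 3 of a group in turn. Fold changes and adjusted p come from edgeR's quasi-likelihood test fitted to all 9 libraries and 17704 genes with Benjamini-Hochberg adjustment, and a gene is called at an adjusted p under 0.05. The 3 comparisons share libraries, so their values are set side by side and not compared with each other.

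After Con A alone, liver transcripts of 6 of the 10 factors rose and protein C fell. Plg rose 2.6-fold, F2 1.93-fold, F13b 1.77-fold and F11 1.64-fold, F12 and F10 by 1.3-fold and 1.29-fold, and Proc was 2.05-fold lower in Con A than in WT. F5, F7 and F9 were not called. Over all tested genes 63.4% were called, 32.5% higher and 30.9% lower in Con A vs WT, and the median log2 fold change was 0.43 for the members, 0.38 for the 10 hepatocyte markers (5 higher, 3 lower) and 0.01 for all genes. The libraries of these groups did not overlap for 8 of the 10 members, against 69.8% of all genes. The count of 6 higher members became 3 without WT 1, 2 or 3 or without Con A 1. F2, F11 and Plg kept their calls in each case.

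The faecal transfer before Con A went with lower transcript levels of F11, F13b and F5, and with no called rise of a member. F11, the contact-route protease precursor, was 4.12-fold lower in FMT-Con A than in Con A, with the second-lowest p of all 17704 genes. F13b, the carrier subunit of factor XIII, was 2.4-fold lower and the cofactor F5 1.53-fold lower. In this comparison 16.8% of all genes were called, 10.6% lower and 6.26% higher, and all 10 members had a negative log2 fold change, with a median of -0.38 against -0.57 for the 10 hepatocyte markers (0 higher and 3 lower) and -0.01 for all genes. With library sizes set by those markers, 8 of the 10 members turned positive, 4 were called higher and F11 was the 1 member called lower. On that scale 9489 genes were called, 95.9% of them higher, and the median log2 fold change of all genes was 0.68. Every member lay below that median. By edgeR with TMM factors 0 members were higher, also at an unadjusted p under 0.05. DESeq2 called 0 higher and 5 lower, the additions being F12 and Plg. Over all genes DESeq2 called 3900 and edgeR 2981. The libraries did not overlap for 4 members, against 32.7% of all genes. The count of 3 lower members became 1 without Con A 1, without FMT-Con A 1 or without FMT-Con A 3, without FMT-Con A 1 and 3 together, or when only these groups were fitted, and F11 kept its call in each case. With library totals in place of TMM factors all genes shifted by 0.19 on the log2 scale in this comparison, and the log2 fold changes of F7, F10 and Proc turned to 0.12, 0.01 and 0.01.

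Against WT, livers with transfer and Con A had higher F2 and Plg and lower F11, Proc and F5. Plg was 1.73-fold and F2 1.53-fold higher, while F11 was 2.51-fold, Proc 2.32-fold and F5 1.91-fold lower in FMT-Con A. Over all genes 59.0% were called, 31.2% higher and 27.9% lower in FMT-Con A vs WT, and the median log2 fold change was -0.07 for the members, -0.31 for the hepatocyte markers (2 higher, 4 lower) and 0.03 for all genes. With library sizes set by the hepatocyte markers, 6 members were higher, and F11 and Proc stayed lower. F5 was not called there (-0.09 on the log2 scale, edgeR adjusted p = 0.604). On that scale 85.3% of the genes called were higher, and the median log2 fold change of all genes was 0.89. The libraries did not overlap for 5 members, against 69.1% of all genes.

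**Figure D1:**
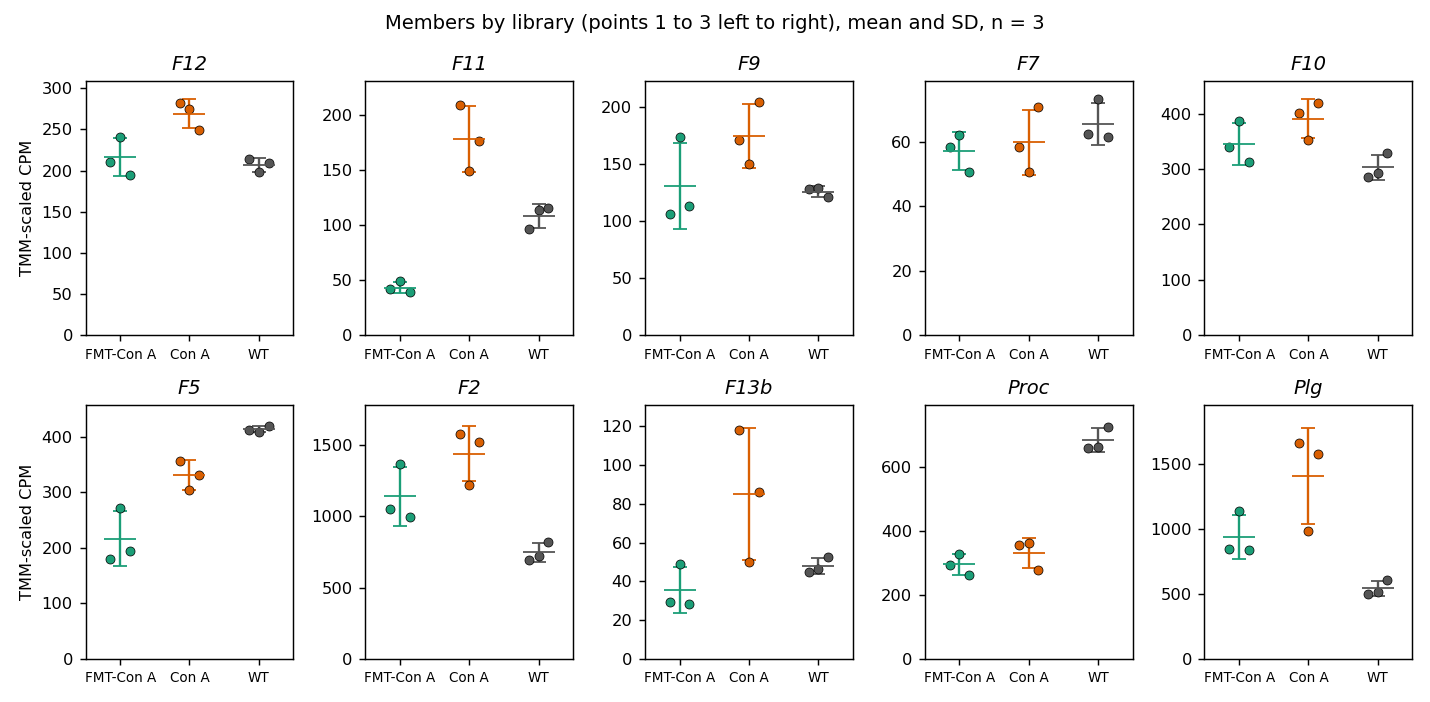
TMM-scaled CPM of each member (vertical axes, from 0) in the 3 libraries of the FMT-Con A, Con A and WT groups, with the mean and SD of each group (n = 3). F11 sits between 39.2 and 48.9 CPM in FMT-Con A, below all Con A (149 to 209) and WT (96.2 to 115) libraries, and Proc is at 262 to 363 CPM in the 6 libraries given Con A, below WT.

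F12 encodes factor XII, the surface-activated protease precursor at the head of the contact route. It had 211, 241 and 195 CPM in FMT-Con A, 282, 275 and 249 CPM in Con A and 214, 198 and 209 CPM in WT. The Con A libraries lay above all others, and FMT-Con A overlapped WT. F12 rose in Con A vs WT (0.38 on the log2 scale, SE 0.13, edgeR adjusted p = 0.0295). That call was lost without WT 1, 2 or 3 (edgeR adjusted p = 0.0846, 0.123 and 0.0792) and without Con A 1 or 2 (0.0863 and 0.0541). It was not called in FMT-Con A vs Con A (-0.32 on the log2 scale, SE 0.13, edgeR adjusted p = 0.12, DESeq2 adjusted p = 0.0424) or in FMT-Con A vs WT (0.06 on the log2 scale, edgeR adjusted p = 0.722).

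F11 encodes factor XI, which activates factor IX and is itself cut by factor XIIa or thrombin. It had 41.5, 48.9 and 39.2 CPM in FMT-Con A, 209, 149 and 176 CPM in Con A and 96.2, 114 and 115 CPM in WT. The groups did not overlap in any comparison, and the order was Con A above WT above FMT-Con A. The mean was 43.2 ± 5.07 CPM in FMT-Con A and 178 ± 30.1 CPM in Con A (SD, n = 3 each), a log2 fold change of -2.04 (SE 0.16, 95% interval -2.41 to -1.68, edgeR adjusted p = 0.00147). FMT-Con A was also below WT (-1.33 on the log2 scale, SE 0.16, edgeR adjusted p = 8.96e-05), and Con A was above WT (0.72 on the log2 scale, SE 0.16, edgeR adjusted p = 0.00288). Without FMT-Con A 1 and 3, the libraries highest in muscle markers, the difference from Con A was -1.86 (edgeR adjusted p = 0.0303), in a fit that assumes the 1 library left to vary like those of the other groups. Over 19 alternative settings the log2 fold change in FMT-Con A vs Con A ran from -2.14 to -1.35 and stayed called (edgeR or DESeq2 adjusted p from 5.11e-28 to 0.0303).

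F9 encodes factor IX, the vitamin K-dependent precursor that factor XIa activates. It had 106, 174 and 113 CPM in FMT-Con A, 171, 150 and 205 CPM in Con A and 128, 129 and 121 CPM in WT. Con A lay above WT, and FMT-Con A 2 alone of its group lay within the Con A range. F9 was not called in Con A vs WT (0.48 on the log2 scale, SE 0.2, edgeR adjusted p = 0.0592), but it was without Con A 2 (0.044) or FMT-Con A 2 (0.0148), and by DESeq2 (DESeq2 adjusted p = 0.0495). The FMT-Con A vs Con A difference of -0.42 (95% interval -0.87 to 0.03, edgeR adjusted p = 0.169) was called only with FMT-Con A 2 left out (-0.67 on the log2 scale, edgeR adjusted p = 0.0182). In FMT-Con A vs WT the log2 fold change was 0.06 (95% interval -0.39 to 0.5, edgeR adjusted p = 0.817).

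F7 encodes factor VII, the protease precursor that binds tissue factor. It had 58.3, 62.3 and 50.7 CPM in FMT-Con A, 58.5, 50.6 and 70.8 CPM in Con A and 62.4, 73.3 and 61.5 CPM in WT. The 3 groups overlapped in every pairing, and no comparison was called. The 95% interval was -0.4 to 0.26 on the log2 scale for FMT-Con A vs Con A and -0.54 to 0.13 for FMT-Con A vs WT, and Con A lay 0.13 below WT (95% interval -0.47 to 0.2, edgeR adjusted p = 0.454).

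F10 encodes factor X, whose active form makes thrombin. It had 340, 387 and 312 CPM in FMT-Con A, 402, 352 and 419 CPM in Con A and 286, 293 and 329 CPM in WT. Con A lay above WT, while FMT-Con A overlapped both. The rise in Con A vs WT was close to the threshold (0.37 on the log2 scale, SE 0.14, edgeR adjusted p = 0.0448) and was lost in 13 of 19 alternative settings. Among these were the fits without WT 1, 2 or 3 (edgeR adjusted p = 0.183, 0.159 and 0.0644), without Con A 1 or 3 (0.113 and 0.109) and without FMT-Con A 1 (0.0595). F10 was not called in FMT-Con A vs Con A (95% interval -0.5 to 0.14) or FMT-Con A vs WT (-0.13 to 0.51).

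F5 encodes factor V, the cofactor of factor Xa. It had 180, 272 and 195 CPM in FMT-Con A, 357, 304 and 331 CPM in Con A and 412, 408 and 419 CPM in WT. The groups did not overlap in any comparison, in the order WT above Con A above FMT-Con A, with FMT-Con A 2 nearest to Con A. F5 was lower in FMT-Con A than in WT (-0.94 on the log2 scale, SE 0.17, edgeR adjusted p = 0.00118) and than in Con A (-0.62 on the log2 scale, SE 0.17, edgeR adjusted p = 0.0373), and neither call held with library sizes set by the hepatocyte markers (-0.09 and 0.06 on the log2 scale). The call against Con A was lost without WT 1, 2 or 3 (edgeR adjusted p = 0.0777, 0.0716 and 0.0678), Con A 1 or 3 (0.138 and 0.0691) or FMT-Con A 1 or 3 (0.146 and 0.134). In Con A vs WT F5 was not called (-0.32 on the log2 scale, edgeR adjusted p = 0.126), though it was without FMT-Con A 2 (0.0386) and with library totals in place of TMM factors (-0.52 on the log2 scale, edgeR adjusted p = 0.00941).

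F2 encodes prothrombin, the precursor of thrombin. It had 1050, 1370 and 993 CPM in FMT-Con A, 1580, 1220 and 1520 CPM in Con A and 696, 723 and 820 CPM in WT. All 6 libraries given Con A lay above WT, and FMT-Con A 2 was higher than Con A 2. F2 rose in Con A vs WT (0.95 on the log2 scale, SE 0.18, edgeR adjusted p = 0.00127) in all 19 alternative settings as well. It also rose in FMT-Con A vs WT (0.61 on the log2 scale, SE 0.18, edgeR adjusted p = 0.0155), a call lost without WT 1 or WT 2 (edgeR adjusted p = 0.069 and 0.0589). FMT-Con A and Con A differed by -0.34 (95% interval -0.74 to 0.06, edgeR adjusted p = 0.213).

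F13b encodes the B subunit that carries the factor XIII transglutaminase in plasma, and its catalytic partner F13a1 is made by macrophages and megakaryocytes. F13b had 29.2, 49.1 and 28.1 CPM in FMT-Con A, 118, 50.2 and 86.3 CPM in Con A and 44.8, 46.6 and 52.7 CPM in WT. Con A 2 lay within the WT range while Con A 1 and 3 were higher, and FMT-Con A 1 and 3 lay below WT while FMT-Con A 2 did not. F13b was lower in FMT-Con A than in Con A (-1.26 on the log2 scale, SE 0.3, edgeR adjusted p = 0.0236), a call lost without Con A 1 (edgeR adjusted p = 0.0987), FMT-Con A 1 (0.0993) or FMT-Con A 3 (0.0915). The rise in Con A vs WT (0.82 on the log2 scale, SE 0.3, edgeR adjusted p = 0.0351) was lost without WT 1, 2 or 3 (0.111, 0.0991 and 0.066) or Con A 1 or 3 (0.163 and 0.067). With Con A 1 left out that log2 fold change was 0.51. F13a1 had 5.3, 2.47 and 4.01 CPM in FMT-Con A, 0.838, 1.12 and 1.74 CPM in Con A and 0.229, 0.0936 and 0 CPM in WT. It was higher in FMT-Con A than in Con A (1.66 on the log2 scale, SE 0.49, edgeR adjusted p = 0.0451), in the direction opposite to F13b.

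Proc encodes protein C, the anticoagulant protease precursor activated by thrombin bound to thrombomodulin. It had 293, 329 and 262 CPM in FMT-Con A, 356, 363 and 279 CPM in Con A and 660, 662 and 726 CPM in WT. All 6 libraries given Con A lay below WT, and FMT-Con A and Con A overlapped. Proc fell in Con A vs WT (-1.04 on the log2 scale, SE 0.16, edgeR adjusted p = 0.000287) and in FMT-Con A vs WT (-1.21 on the log2 scale, SE 0.16, edgeR adjusted p = 0.000146), and both calls held in all 19 alternative settings. FMT-Con A and Con A differed by -0.17 (95% interval -0.52 to 0.17, edgeR adjusted p = 0.458).

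Plg encodes plasminogen. It had 845, 1140 and 840 CPM in FMT-Con A, 1660, 984 and 1580 CPM in Con A and 501, 517 and 609 CPM in WT. All libraries given Con A were above WT, and Con A 2 was the low library of its group, below FMT-Con A 2. Plg rose in Con A vs WT (1.38 on the log2 scale, SE 0.23, edgeR adjusted p = 0.000492) and in FMT-Con A vs WT (0.79 on the log2 scale, SE 0.22, edgeR adjusted p = 0.0122, and 0.0537 without WT 1). The FMT-Con A vs Con A difference was -0.58 (95% interval -1.08 to -0.08, edgeR adjusted p = 0.0976), and it was called without Con A 2 (-0.77 on the log2 scale, edgeR adjusted p = 0.0237) and by DESeq2 (DESeq2 adjusted p = 0.0461).

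**Figure D2:**
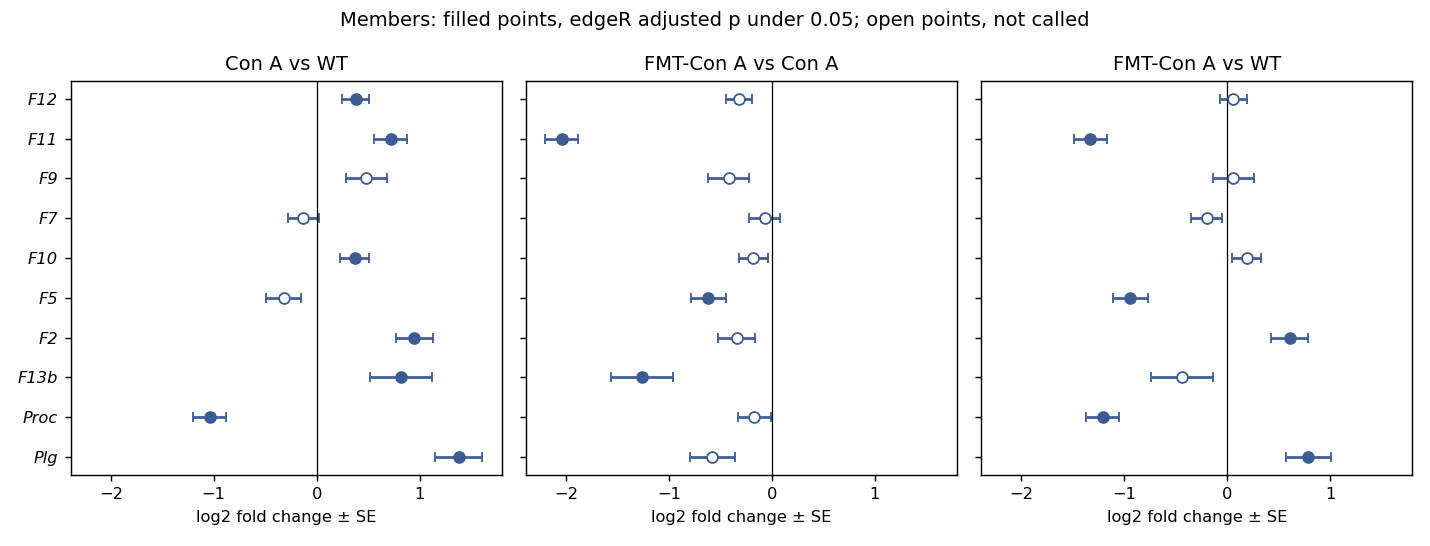
Log2 fold change of each member with its SE in the 3 comparisons, from the edgeR fit of all 9 libraries (filled: adjusted p under 0.05). F11 stands at 0.72 in Con A vs WT, -2.04 in FMT-Con A vs Con A and -1.33 in FMT-Con A vs WT, and Proc at -1.04, -0.17 and -1.21.

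Levels between genes were compared per kilobase of annotated exon. The length was the union of exons over all annotated transcripts, 4594 bases for F2 and 2478 for Proc. Ranks between genes therefore depend on the annotation. In FMT-Con A, Plg and F2 came first (253 ± 45.9 and 248 ± 44.9 CPM per kb) and F11 (19.3 ± 2.26) and F13b (14 ± 4.67) last. The first pair did not differ beyond its spread. In Con A, Plg (380 ± 99.7) and F2 (314 ± 42.2) led, while F10, F12 and Proc lay together (143 ± 12.8, 137 ± 9.01 and 134 ± 18.9). In WT, Proc was the most abundant member at 276 ± 15.1 CPM per kb, ahead of F2 (162 ± 14.1) and Plg (146 ± 15.7), and F13b the least at 19 ± 1.63 (SD, n = 3 throughout). Before division by length, F2 was above Proc in WT (746 ± 64.8 against 683 ± 37.5 CPM). Among the 10 members, Proc had rank 4 in FMT-Con A, 5 in Con A and 1 in WT, and F11 had rank 9 in FMT-Con A, 6 in Con A and 7 in WT.

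Ratios of member counts within a library do not depend on scaling between libraries. F2 reads outnumbered Proc reads 3.57, 4.18 and 3.79 times in FMT-Con A and 4.44, 3.36 and 5.45 times in Con A, against 1.05, 1.09 and 1.13 times in WT. The libraries given Con A all lay above WT, and the log2 ratio was higher by 1.99 in Con A and by 1.82 in FMT-Con A than in WT (two-sided exact permutation p = 0.1 each, the smallest that 3 against 3 allows). The F11 to F9 ratio was 0.393, 0.281 and 0.346 in FMT-Con A, 1.22, 0.996 and 0.858 in Con A and 0.754, 0.878 and 0.957 in WT. FMT-Con A lay below both other groups, by 1.59 on the log2 scale from Con A and 1.35 from WT (exact permutation p = 0.1 each), and Con A overlapped WT (difference 0.24, exact permutation p = 0.3). The F7 to F10 ratio of these chromosome 8 neighbours was 0.161 to 0.172 in FMT-Con A, 0.144 to 0.169 in Con A and 0.187 to 0.25 in WT, without overlap between libraries given Con A and WT. The Plg to F2 ratio was 0.806 to 0.846 in FMT-Con A, 0.807 to 1.05 in Con A and 0.715 to 0.743 in WT. Over the 4 ratios and 3 comparisons, 12 differences were tested and none could reach an unadjusted p under 0.05.

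**Figure D3:**
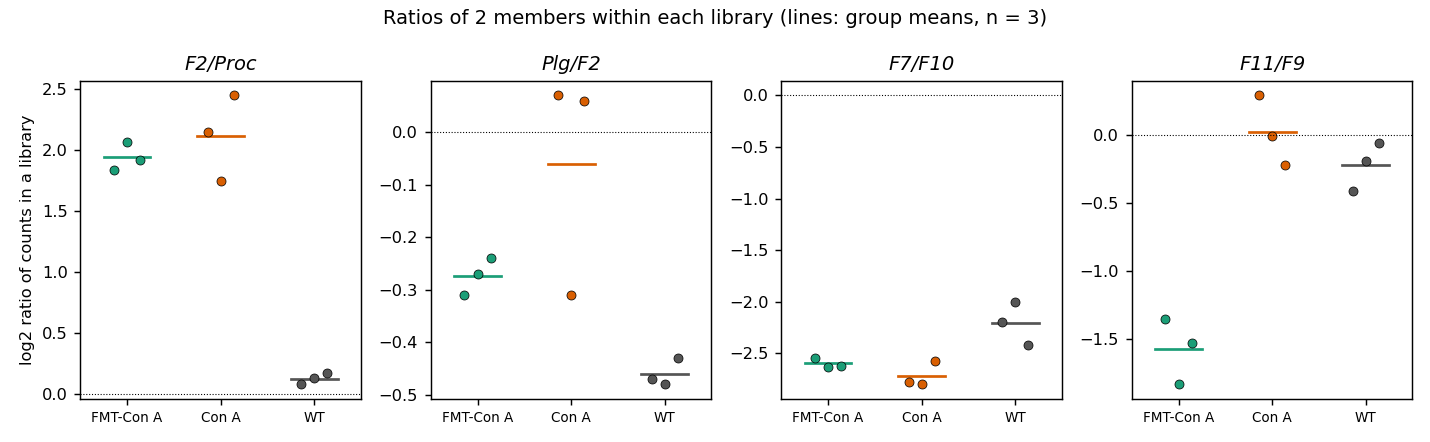
Log2 ratio of the counts of 2 members within each library of the FMT-Con A, Con A and WT groups, with lines at the group means (n = 3). F2/Proc is at 1.84 to 2.07 in FMT-Con A and 1.75 to 2.45 in Con A, against 0.08 to 0.17 in WT, and F11/F9 is at -1.83 to -1.35 in FMT-Con A, below every Con A and WT library.

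Since the summed hepatocyte markers differed between the groups, each member was set against their summed reads. F11 had 1.12, 1.14 and 1.1 reads per 1000 hepatocyte marker reads in FMT-Con A, 3.05, 2.49 and 3.03 in Con A and 1.4, 1.77 and 1.52 in WT. The groups did not overlap, so F11 was lower in FMT-Con A on this scale too (-1.35 on the log2 scale, SE 0.15, edgeR adjusted p = 0.00114, against Con A, and -0.47, edgeR adjusted p = 0.0136, against WT). Proc had 7.94, 7.69 and 7.34 in FMT-Con A, 5.2, 6.06 and 4.79 in Con A and 9.6, 10.3 and 9.55 in WT. It stayed below WT in both groups given Con A, and FMT-Con A was above Con A (0.52 on the log2 scale, edgeR adjusted p = 0.0136). The same scale put F7, F10 and F12 higher in FMT-Con A than in Con A (log2 fold change 0.61, 0.51 and 0.37) and left F13b not called (log2 fold change -0.57). It moved the median of all genes by 0.69 in that comparison, so the directions of members other than F11 and F13b in FMT-Con A vs Con A depended on the scale. Alb was at 20200, 17800 and 19800 CPM in FMT-Con A, 38000, 33800 and 34400 CPM in Con A and 38200, 33300 and 45000 CPM in WT, and it weighed most in the marker sum.

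**Figure D4:**
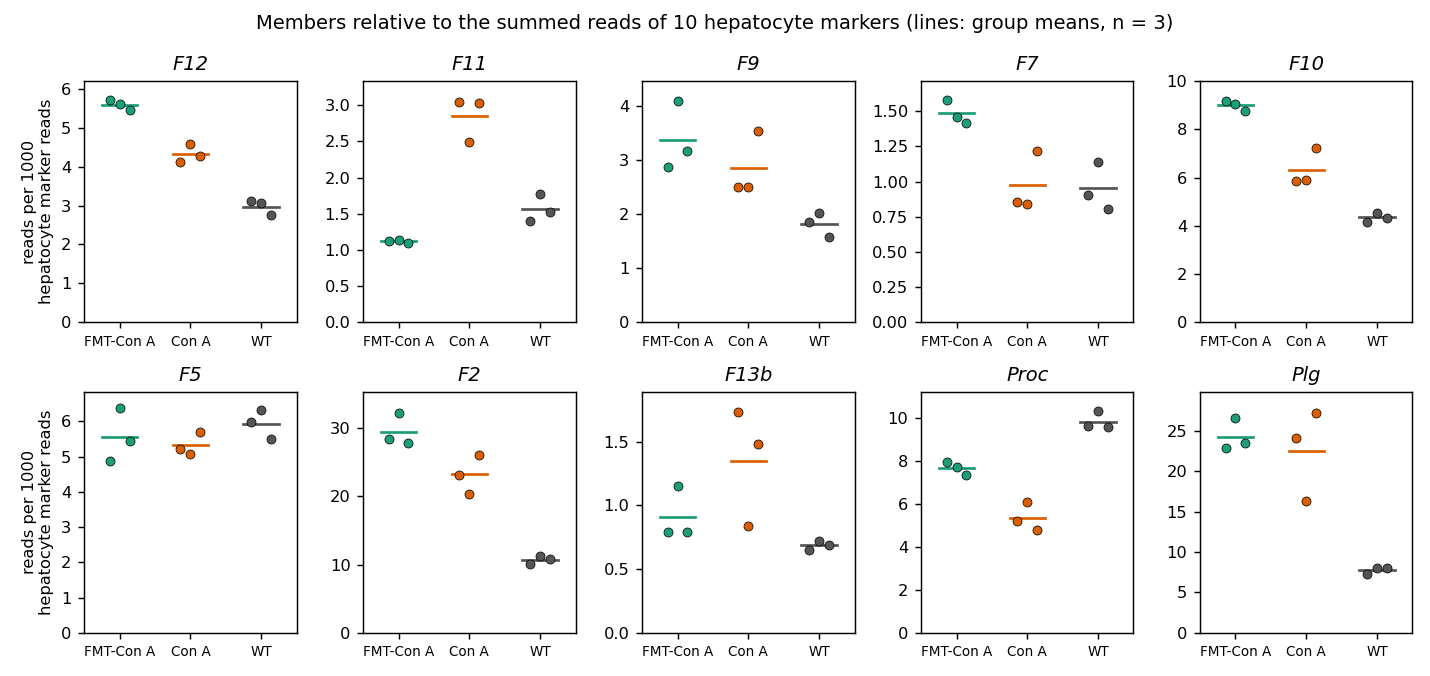
Reads of each member per 1000 summed reads of the 10 hepatocyte markers, by library, with lines at the group means (n = 3, axes from 0). F11 lies at 1.1 to 1.14 in FMT-Con A, 2.49 to 3.05 in Con A and 1.4 to 1.77 in WT, and F12 is highest in FMT-Con A.

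The rest of the pathway was read from 5 lists of genes. Their median log2 fold changes in Con A vs WT were 0.06 for the vitamin K cycle and secretion, 2.00 for contact and fibrinogen genes, 0.83 for hepatic inhibitors, 2.51 for genes made mainly outside hepatocytes and -0.05 for promoter-binding factors, beside 0.01 for all genes. In FMT-Con A vs WT the same lists had 1 of 7, 4 of 6, 4 of 9, 4 of 9 and 2 of 5 genes higher, and 3, 1, 3, 1 and 2 lower. Over all genes 31.2% were higher and 27.9% lower in that comparison. The shares were 32.5% and 30.9% in Con A vs WT, and 6.26% and 10.6% in FMT-Con A vs Con A. List counts here and in the next paragraphs are to be read beside these shares, and no set test was run. Among 7 genes of the vitamin K cycle and factor secretion, 2 were higher and 2 lower in Con A than in WT. Calu, an inhibitor of the carboxylation system in the endoplasmic reticulum, rose (2.18 on the log2 scale, edgeR adjusted p = 1.98e-05), as did Furin, a protease that removes propeptides (0.78, edgeR adjusted p = 0.00375). Vkorc1, the reductase that recycles vitamin K, had 4.61, 5.08 and 3.4 CPM in FMT-Con A, 3.09, 3.49 and 2.94 CPM in Con A and 8.93, 9.78 and 8.9 CPM in WT. It fell in Con A vs WT (-1.53 on the log2 scale, edgeR adjusted p = 8.76e-05), as did Lman1, a cargo receptor for factors V and VIII (-0.33, edgeR adjusted p = 0.0331). In FMT-Con A vs Con A Furin was the 1 gene called of the 7, at 130, 151 and 129 CPM in FMT-Con A against 335, 206 and 271 CPM in Con A (-0.99 on the log2 scale, edgeR adjusted p = 0.00952).

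Of 6 contact and fibrinogen genes, 4 were higher and 1 lower in Con A than in WT. The fibrinogen chains Fga, Fgb and Fgg rose by 4.32, 3.12 and 3.54 on the log2 scale (edgeR adjusted p = 2.76e-06, 2.98e-06 and 3.27e-06). Klkb1, which encodes prekallikrein and lies 4658 bases from F11, had 45.6, 89.4 and 43.2 CPM in FMT-Con A, 96.5, 64.7 and 46.5 CPM in Con A and 368, 386 and 404 CPM in WT. It fell in Con A vs WT (-2.48 on the log2 scale, edgeR adjusted p = 0.000124), where its neighbour F11 rose, and it was not called in FMT-Con A vs Con A (-0.22 on the log2 scale, edgeR adjusted p = 0.651), where F11 fell. By edgeR 0 of the 6 were called in FMT-Con A vs Con A, also at an unadjusted p under 0.05 and by DESeq2.

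Of 9 hepatic inhibitors, 5 were higher and 2 lower in Con A than in WT. Cpb2, a carboxypeptidase that slows fibrinolysis, rose by 2.75 and Serpina10, the inhibitor of factor Xa that works with protein Z, by 3.1 on the log2 scale (edgeR adjusted p = 1.47e-06 and 2.66e-06). Proz, which encodes protein Z and lies 4238 bases beyond F10, fell (-1.33 on the log2 scale, edgeR adjusted p = 1.67e-05). Pros1, the cofactor of activated protein C, had 49.6, 73.4 and 51.5 CPM in FMT-Con A, 60.4, 50.2 and 63.9 CPM in Con A and 25.9, 28 and 28.2 CPM in WT. It rose in Con A vs WT (1.09 on the log2 scale, edgeR adjusted p = 0.000292) while Proc fell. Serpinc1, which encodes antithrombin, was not called in that comparison (-0.24 on the log2 scale, edgeR adjusted p = 0.257). In FMT-Con A vs Con A edgeR called 0 of the 9, with 0 higher and 1 lower at an unadjusted p under 0.05 and by DESeq2.

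Of 9 genes made mainly outside hepatocytes, 6 were higher in Con A than in WT. Procr, the endothelial receptor of protein C, rose by 5.92 on the log2 scale (edgeR adjusted p = 3.47e-07). Procr had only 2 to 5 reads in each WT library, so the size of its fold depends on how the fit treats low counts. Plau, the urokinase activator of plasminogen, rose by 2.51 on that scale (edgeR adjusted p = 0.000136), and Thbd, which encodes thrombomodulin, by 3.44 (edgeR adjusted p = 0.000256). F3, tissue factor, had 4.04, 2.61 and 3.17 CPM in FMT-Con A, 43.6, 12.6 and 20 CPM in Con A and 5.27, 5.62 and 6.31 CPM in WT. It was lower in FMT-Con A than in Con A (-2.94 on the log2 scale, SE 0.41, edgeR adjusted p = 0.00332), and F13a1 was the 1 gene higher.

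Of 5 factors that bind promoters of clotting factor genes, 2 were higher and 2 lower in Con A than in WT. Foxa2 had 17.5, 16.3 and 18.7 CPM in FMT-Con A, 3.88, 6.31 and 5.47 CPM in Con A and 31.8, 37.5 and 49.9 CPM in WT. The groups did not overlap, with a fall in Con A vs WT (-2.93 on the log2 scale, edgeR adjusted p = 2.9e-06) and a higher level in FMT-Con A than in Con A (1.74 on the log2 scale, edgeR adjusted p = 0.00218). Onecut1 fell in Con A vs WT (-2.25, edgeR adjusted p = 0.0018), and Hnf4a and Cebpb rose (0.7 and 1.07, edgeR adjusted p = 0.0107 and 0.00934). Cebpa was not called in any of the 3 comparisons.

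**Figure D5:**
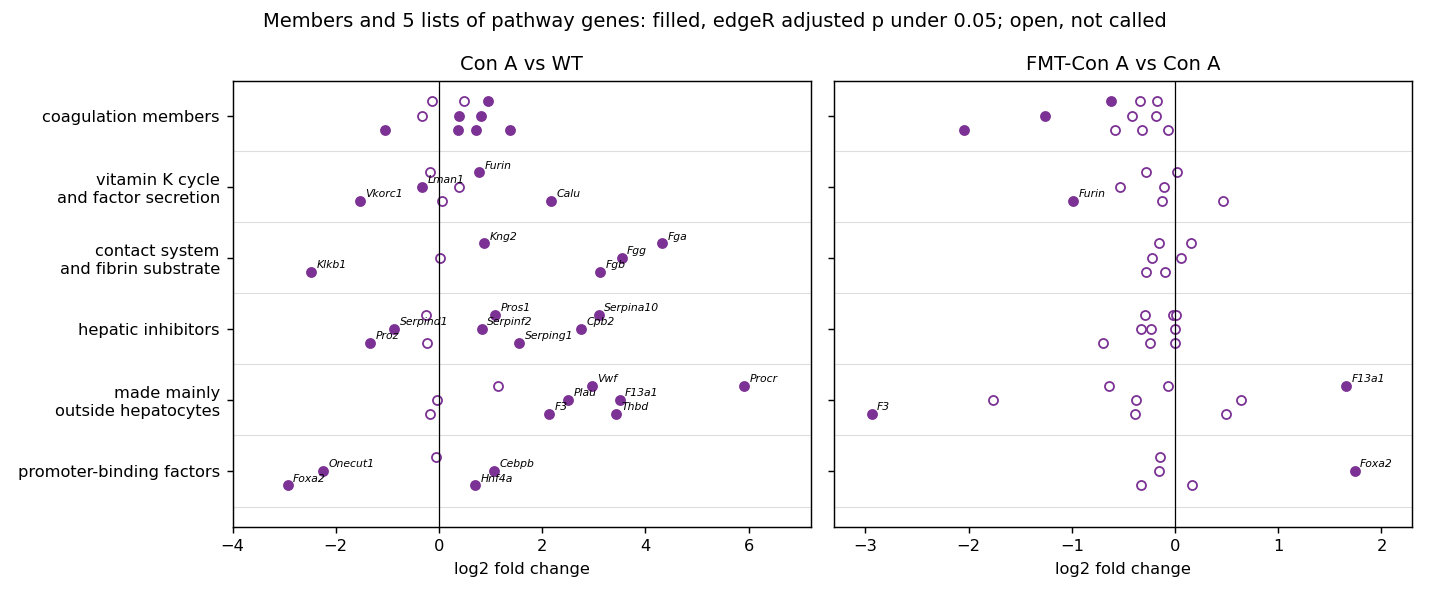
Log2 fold change of the members and of the genes of the 5 lists in FMT-Con A vs Con A and in Con A vs WT (filled: edgeR adjusted p under 0.05; called genes of the 5 lists are named). In Con A vs WT the points spread from -2.93 (Foxa2) to 5.92 (Procr), and in FMT-Con A vs Con A the called genes are F11, F13b, F5, Furin, F3, F13a1 and Foxa2.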

How the data were processed

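The deposited values were read counts per gene, 1 file per library, made by the authors. The tools named are CASAVA, HISAT2 and featureCounts, and the genome GRCm38 (mm10), per the submitters' processing notes. Versions, annotation release, strand setting and treatment of multi-mapping reads are not given in the sources used here. The libraries were paired-end and poly(A)-selected, per the labels' protocols.

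Gene symbols, positions and exon lengths came from GENCODE vM21 (GRCm38), which matched 52083 of 55359 Ensembl identifiers. The 1360 numbered gene models without one held 1.43 to 1.98% of counts and stayed in the fit. The filter filterByExpr (minimum count 10, minimum total 15) kept 17704 genes. All 9 libraries were fitted in edgeR 4.0.16 (R 4.3.3) with TMM factors and group as the only term (6 residual degrees of freedom), and each pair of groups was compared with the quasi-likelihood F test, two-sided. A standard error is the size of the log2 fold change divided by the square root of its F. DESeq2 1.42.0 was an alternative. Ratios within a library had 0.5 added to each count. On counts simulated for Con A vs WT over 16413 genes, the fit recovered 58 of 100 genes changed by 1 and 97 of 100 changed by 2 on the log2 scale. Far fewer genes changed there than in the data, where 63.4% were called, so the adjusted threshold was stricter in the simulation. The recovered shares therefore do not give the power of the real fit.

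The members, lists and tests were chosen with earlier results of these data known. All members are named, and of the lists up to 3 genes past the threshold with the lowest p per comparison plus others the text needs (Klkb1, Pros1, Serpinc1, Lman1, Hnf4a, Cebpb, Cebpa, Alb and single cell type markers), chosen after their values were seen. Promoter sequences are RefSeq's, on GRCm38.p6. Protein sequences and the promoters of Proc and Plg were not used here. The lists were shortened by genes that are not reported here, and counts are over the shortened lists.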

Additional observations from a re-analysis of the deposited data

How the results depend on the processing

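Of 570 refits of single members under 19 alternative settings, 485 kept direction and side of the threshold, 49 lost the call, 16 gained it and 20 changed sign. Calls of F2, F11, Proc and Plg in Con A vs WT, of F11 in FMT-Con A vs Con A and of F11 and Proc in FMT-Con A vs WT held throughout. In Con A vs WT 6 members were higher and 1 lower. With library totals in place of TMM factors 3 were higher and 2 lower, and with the replicate number as a block 3 were higher. With 1 library left out, 3 to 7 were higher and 1 to 2 lower. In FMT-Con A vs Con A, 3 members were lower and 2981 genes called. These became 1 and 1156 with only those groups fitted, 1 and 99 without FMT-Con A 1 and 3, and 1 to 4 and 664 to 4053 with 1 library left out, and DESeq2 found 5 members lower. Library sizes set by the hepatocyte markers, chosen after seeing the data as was the removal of FMT-Con A 1 and 3, gave 4 higher, 1 lower and 9489 genes. In FMT-Con A vs WT 2 members were higher, against 6 with hepatocyte marker sizes and 0 to 2 with 1 library left out. There, 10449 genes were called, against 6957 without FMT-Con A 1 and 3. The fits that leave libraries out have fewer samples, but the genes called also differed by the library left out. In FMT-Con A vs Con A they were 664 without FMT-Con A 1 and 4053 without FMT-Con A 2. The cause of these shifts was not tested.

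Members that changed sign were not called in the fit reported, except F5. With hepatocyte marker sizes, log2 fold changes in FMT-Con A vs Con A became 0.34 for F2, 0.06 for F5, 0.61 for F7, 0.25 for F9, 0.51 for F10, 0.37 for F12, 0.52 for Proc and 0.10 for Plg. F7 also became 0.03 in Con A vs WT and 0.64 in FMT-Con A vs WT, and F13b 0.40 in the last. With library totals F7, F10 and Proc became 0.12, 0.01 and 0.01 in FMT-Con A vs Con A. Without FMT-Con A 1 and 3, F7 became 0.05 in that comparison and F13b 0.03 in FMT-Con A vs WT. With 1 library left out, F7 in FMT-Con A vs Con A ran from -0.16 to 0.07, F9 in FMT-Con A vs WT from -0.20 to 0.21 and F12 from -0.02 to 0.14.

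The ratios kept their sign under a pseudocount of 5 and with each library left out. The correlations of same-numbered deviations ran from -0.22 to 0.34, and FMT-Con A 1 correlated best with Con A 3 (0.36). With 3 libraries a group, these correlations cannot decide whether the replicate numbers pair the libraries. The block took F10, F12 and F13b out of the calls in Con A vs WT and F5 out of those in FMT-Con A vs Con A (edgeR adjusted p = 0.0796, 0.0519, 0.0597 and 0.057). Each group has 3 libraries, so small differences of members can be missed. The fit recovered 58 of 100 simulated 1-unit log2 changes in Con A vs WT, but with far fewer changed genes than in the data. That share therefore does not give the power for the members.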

Other observations

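The genes whose centred log2 CPM over the 9 libraries came nearest to Plg, the member with the largest rise in Con A vs WT, were Npc2, Egln2, Carhsp1, Eef1a1 and Acp1, of 10068 candidates. Their root mean square differences from Plg were 0.0562, 0.0811, 0.0847, 0.101 and 0.104. For Proc, the member that fell, the nearest were Mapre3, Paxx, Fam169b, Haao and Sgpp1, at 0.0869, 0.101, 0.103, 0.105 and 0.109.

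Of the genes flanking F5, Selp (P-selectin), 1812 bases away, was higher in Con A than in WT (1.19 on the log2 scale, edgeR adjusted p = 0.017), and Slc19a2, 28769 bases away on the other side, was lower in FMT-Con A than in Con A (-1.25 on the log2 scale, edgeR adjusted p = 0.00501). Mcf2l, 5129 bases from F7, was higher in FMT-Con A than in Con A (2.19 on the log2 scale, edgeR adjusted p = 0.0105), where F7 was not called. Aspm, 7611 bases from F13b, was higher in FMT-Con A than in Con A (1.63 on the log2 scale, edgeR adjusted p = 0.0121), where F13b was lower.

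The 10 members together took 0.339, 0.398 and 0.328% of all counts in FMT-Con A, 0.449, 0.369 and 0.459% in Con A and 0.33, 0.323 and 0.364% in WT. On this share, FMT-Con A 2 and Con A 2 lay closer to each other than to the other libraries of their groups.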
